A study of Mus musculus with 16 samples.

Results

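The collagen gene family was taken as every row of the deposited count table whose symbol reads Col, digits, a, digits. The rule found 44 genes among 26357, and 41 of them were among the 14671 genes that passed the filter on low counts. Collagens are triple-helical proteins of the extracellular matrix, each built from 3 alpha chains, and every gene here encodes 1 such chain. The genes were placed in 7 classes: fibrillar dermal, cartilage, basement membrane, epidermal and anchoring, beaded filament, FACIT (fibril-associated collagens with interrupted helices) and other.

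RNA was sequenced from 16 mouse libraries of a study on skin inflammation driven by the cytokine IL-23. The groups were IL-23 with oral drug vehicle, vehicle with oral drug vehicle, IL-23 with intraperitoneal drug vehicle, and vehicle with intraperitoneal drug vehicle, with 4 libraries each. All 16 samples had been given a drug vehicle holding 0 mpk of compound, so no group received a drug. The labels name neither strain, age and sex nor the tissue and the day of harvest. Nothing in the labels says that libraries of 1 group came from separate animals, so p-values measure the spread between these libraries. Libraries are called by the number that opens their title.

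Fibrillar collagens form the ropes that give dermis its tensile strength, whereas type II, IX and XI collagens build the fibrils of cartilage. Type IV collagens form the sheet-like network of basement membranes, in chain combinations that differ between tissues. In skin, type XVII collagen is a transmembrane protein of the hemidesmosomes of basal keratinocytes, and type VII collagen forms the anchoring fibrils below them.

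Total counts ran from 6381990 to 10078531 in the IL-23 libraries and from 7159325 to 14432930 in the vehicle libraries. Levels are CPM, each gene's count relative to its library's total after scaling with TMM factors. The gene Krt14 and other basal keratinocyte markers, summed over 9 genes, reached 19362 to 28616 CPM in IL-23 libraries and 16196 to 21969 CPM in vehicle libraries. Chondrocyte, skeletal muscle, adipocyte, Schwann cell and smooth muscle markers were also detected in every library. In such bulk samples, fewer cells of a type and less RNA per cell cannot be told apart. IL-23 intraperitoneal library 28 stood apart in the dermal genes. Its 10 fibroblast markers summed to 2597 CPM, against 793 to 1202 CPM in the 7 other IL-23 libraries and 1156 to 2117 CPM in the vehicle libraries. Many of the counts, sums and ratios that it moved are given with and without it, though not all.

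The 5' flanks of 4 genes are shown. Col4a6 and Col4a5 had the largest falls in the family over both routes and are neighbours transcribed away from each other on chromosome X. Col17a1 and Col7a1, the whole epidermal and anchoring class, fell in both routes. Sequences are from RefSeq, build GRCm38.p6, 5' to 3' on each gene's own strand, cut to bases that lie outside annotated exons. They cover chrX:141474096-141474326 (minus strand), chrX:141475169-141475369 (plus strand), chr19:47692095-47692292 (minus strand) and chr9:108953336-108953585 (plus strand). Capitals mark matches, on either strand, to a CCAAT box, to the GC box GGGCGG or to the TATA motif TATAAA.
Col4a6: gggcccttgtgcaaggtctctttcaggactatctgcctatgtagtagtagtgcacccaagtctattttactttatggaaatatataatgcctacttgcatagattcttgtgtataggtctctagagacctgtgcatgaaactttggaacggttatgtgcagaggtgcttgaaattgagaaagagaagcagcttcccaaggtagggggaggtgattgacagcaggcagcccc
Col4a5: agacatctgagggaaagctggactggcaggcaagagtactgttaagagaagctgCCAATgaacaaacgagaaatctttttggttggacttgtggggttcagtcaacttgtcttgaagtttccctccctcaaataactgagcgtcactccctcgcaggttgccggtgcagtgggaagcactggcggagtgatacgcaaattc
Col17a1: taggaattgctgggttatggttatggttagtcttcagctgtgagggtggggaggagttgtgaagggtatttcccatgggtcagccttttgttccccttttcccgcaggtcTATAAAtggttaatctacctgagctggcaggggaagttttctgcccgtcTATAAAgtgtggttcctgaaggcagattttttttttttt
Col7a1: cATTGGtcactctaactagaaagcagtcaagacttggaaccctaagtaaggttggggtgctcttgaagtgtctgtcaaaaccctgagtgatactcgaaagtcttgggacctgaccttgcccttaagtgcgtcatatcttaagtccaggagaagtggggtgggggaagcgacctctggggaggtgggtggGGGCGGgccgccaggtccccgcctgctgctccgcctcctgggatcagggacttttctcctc
The AP-1-like motif TGANTCA was also searched on both strands, and no marked matches overlap. Col4a6 held none of the motifs. Col4a5 held 1 CCAAT, Col17a1 held 2 TATAAA, and Col7a1 held 1 CCAAT, read on the reverse strand, and 1 GGGCGG. No window held TGANTCA. Of 32851 RefSeq windows of 250 bases, 33.8% held a CCAAT box, 32.7% held GGGCGG, 12.4% held TATAAA and 6.7% held TGANTCA. Those windows were not cut at exons, whereas the flanks of Col4a6, Col4a5 and Col17a1 are shorter, at 231, 201 and 198 bases. A match is a description of these letters and not a bound site.

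IL-23 against vehicle was compared within each route and as the mean over both routes. In oral mice, 35 of 41 collagen genes fell, 1 rose and 5 were not called, with a median log2 fold change of -1.16. Among all 14671 genes, 63.3% were called in that contrast, 34.0% lower and 29.2% higher, with a median of -0.06. The IL-23 and vehicle ranges did not overlap for 33 of the genes that fell, against 31.8% of all genes that were lower without overlap. In intraperitoneal mice, 26 collagen genes fell, none rose and 15 were not called (median -1.01). Of all genes, 61.7% were called, 30.9% lower and 30.8% higher. Lower levels without overlap were seen in 23 collagen genes and in 25.9% of all genes. Over both routes, 33 fell, 1 rose and 7 were not called (median -1.03). Of all genes, 73.6% were called, 38.7% lower and 34.9% higher, and the 8 IL-23 libraries lay below the 8 vehicle libraries in 23 collagen genes and in 19.2% of all genes. The collagen share called lower was above that of all genes in each contrast. With plain library sizes in place of TMM factors, the median of all genes over both routes moved from -0.04 to -0.25, and 38 collagen genes were called lower and 1 higher. The unadjusted p was below 0.05 for 26 collagen genes in intraperitoneal mice, all of them lower, and limma-voom and DESeq2 likewise gave no rise there.

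**Figure D1:**
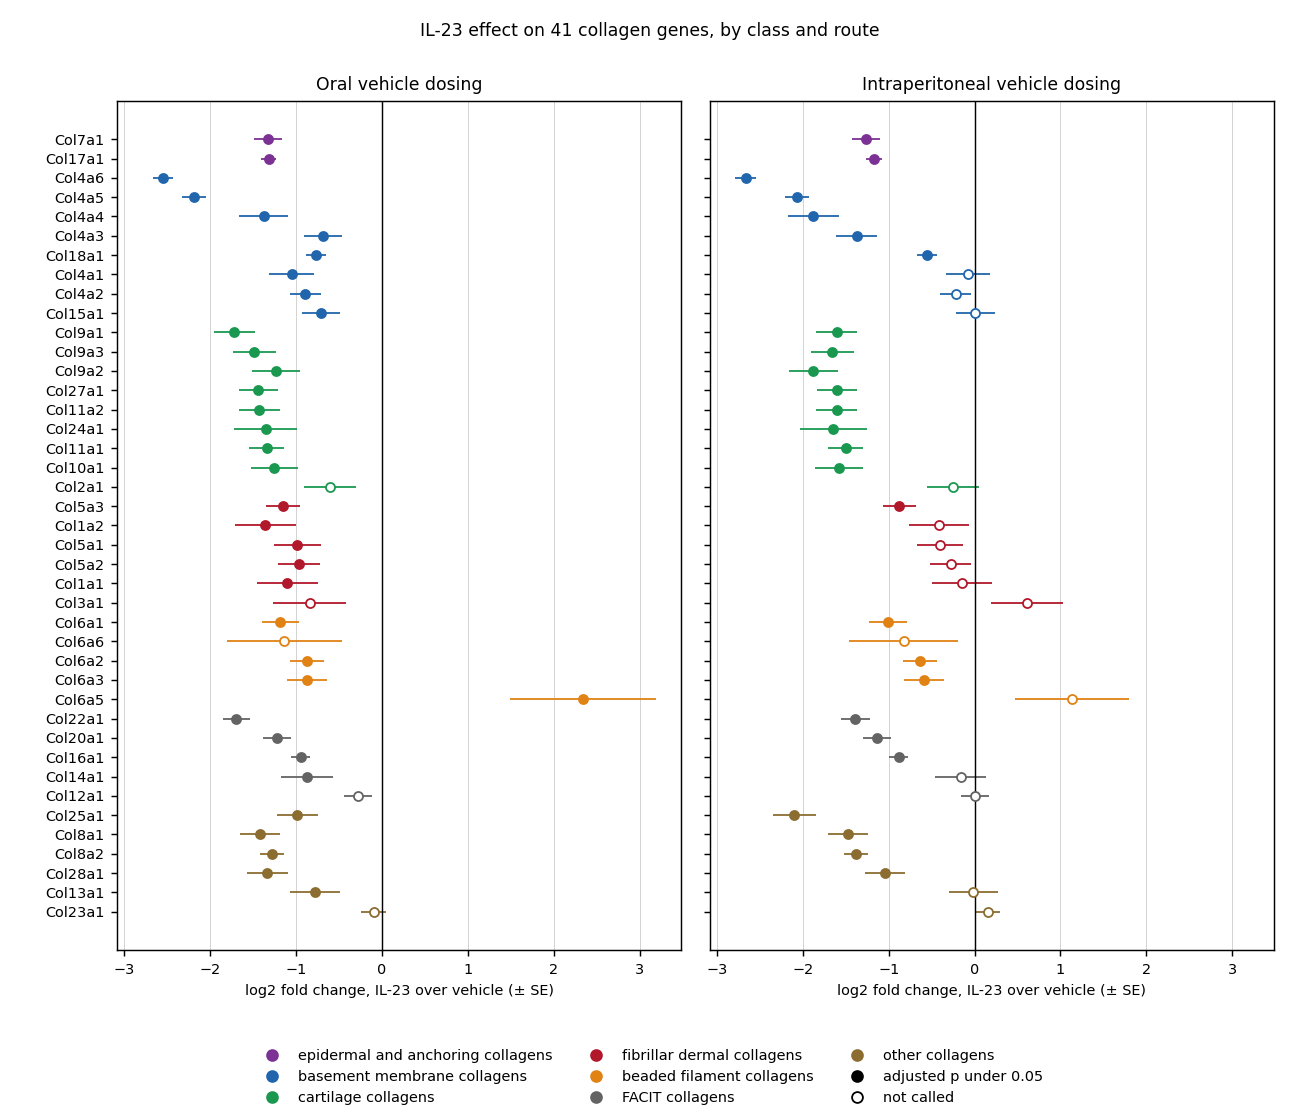
Log2 fold change of IL-23 against vehicle for each tested collagen gene, grouped by class, for the oral and the intraperitoneal route. Points left of 0 are lower in IL-23 libraries. Epidermal points, Col4a5, Col4a6 and all cartilage points but Col2a1 lie at or left of -1 in both routes, while most fibrillar dermal points lie nearer to 0 in the intraperitoneal route.

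Without library 28, the genes called lower were 37 in oral mice, 32 in intraperitoneal mice and 37 over both routes. In that fit the oral libraries were unchanged, and all groups share 1 estimate of the spread. Of all 14832 genes then tested, 33.7% were called lower in oral mice, 30.4% in intraperitoneal mice and 38.3% over both routes. No collagen gene's IL-23 effect was called different between routes, nor was that of any gene by edgeR (0 of 14671, with 796 at an unadjusted p below 0.05, 5 of them collagens). DESeq2 called 1 gene of 14671 and limma-voom called 0. Nor did edgeR call any gene between routes within 1 agent. The unadjusted p was below 0.05 for 1874 genes with IL-23 and for 1087 with vehicle, while DESeq2 called 33 with IL-23 and 1 with vehicle, and limma-voom called 0 with either. A gene called in 1 route and not in the other is therefore not shown to differ between them.

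The largest falls in the family over both routes were in basement membrane chains. Col4a6 (ID 94216, chromosome X, 141165403 to 141474095) encodes the alpha 6 chain of type IV collagen. Its levels were 14.3, 13.2, 10.7 and 12.5 CPM in the IL-23 oral libraries, against 70.4, 70.4, 75.5 and 79.9 CPM in the vehicle oral libraries. In intraperitoneal mice they were 10.1, 9.69, 12.7 and 9.95 CPM with IL-23, against 79.6, 63.1, 56.9 and 70.4 CPM with vehicle. All 8 IL-23 libraries lay below all 8 vehicle libraries. The log2 fold change over both routes was -2.61 (SE 0.09, adjusted p = 4.3e-13), which is 6.10-fold lower.

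Its neighbour Col4a5 (ID 12830, chromosome X, 141475370 to 141689236) encodes the alpha 5 chain, which pairs with alpha 6 in the epidermal basement membrane. The gap between these 2 genes is 1274 bases. Levels ranged from 8.31 to 12.2 CPM in the 8 IL-23 libraries (median 10.1) and from 37.0 to 56.7 CPM in the 8 vehicle libraries (median 45.5). The groups did not overlap, and the log2 fold change was -2.13 (SE 0.10, adjusted p = 2.8e-11). It was -2.19 in oral and -2.07 in intraperitoneal mice.

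Col4a1 and Col4a2, which encode the chains of the near-ubiquitous type IV network, changed less. Col4a1 (ID 12826, chromosome 8, 11198423 to 11312889) had 63.7, 69.2, 66.1 and 66.7 CPM in the IL-23 oral libraries, against 138, 122, 117 and 174 CPM in the vehicle oral libraries. In intraperitoneal mice it had 56.1, 199, 86.4 and 81.9 CPM with IL-23, the 199 being library 28, against 115, 101, 108 and 125 CPM with vehicle. Oral groups did not overlap and intraperitoneal groups did. Col4a1 fell in oral mice (log2 fold change -1.05, SE 0.26, adjusted p = 0.0022) and was not called in intraperitoneal mice (-0.08, SE 0.26, adjusted p = 0.81), where without library 28 it was -0.57 (adjusted p = 0.0021). Col4a2 (ID 12827, chromosome 8, 11312805 to 11449287) ranged from 52.7 to 124 CPM in IL-23 libraries and from 82.9 to 116 CPM in vehicle libraries. It gave -0.89 in oral mice (adjusted p = 0.00038) and -0.22 in intraperitoneal mice (adjusted p = 0.29), and without library 28 the intraperitoneal value was -0.53 (adjusted p = 0.00017).

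Within libraries, the level per kilobase of Col4a5 was 0.042 to 0.196 of that of Col4a1 with IL-23 and 0.288 to 0.431 with vehicle. The same ratio of Col4a6 to Col4a2 was 0.076 to 0.243 with IL-23 and 0.621 to 0.802 with vehicle. Neither ratio overlapped between agents. Both lowest IL-23 values came from library 28, without which the IL-23 ranges were 0.125 to 0.196 for Col4a5 to Col4a1 and 0.148 to 0.243 for Col4a6 to Col4a2. These ratios were chosen after values had been seen and carry no test.

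Col4a3 and Col4a4, chains of the network best known from the kidney glomerulus, were low. Col4a4 (ID 12829) had 0.657 to 2.23 CPM in the IL-23 libraries of both routes, against 3.0 to 4.64 CPM in the vehicle libraries, and its log2 fold change was -1.63 (SE 0.20, adjusted p = 1.6e-06). Col4a3 (ID 12828) had 1.5 to 3.81 CPM with IL-23 and 3.90 to 6.09 CPM with vehicle, and fell by 1.03 on the log2 scale (SE 0.16, adjusted p = 2.5e-05). Its oral call was lost without IL-23 oral library 24 (adjusted p = 0.053) or vehicle oral library 51 (adjusted p = 0.065). The annotated Col4a1 and Col4a2 overlap by 85 bases and Col4a3 and Col4a4 by 114 bases, and the strand setting of the counting is not given in the sources used here.

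Of the remaining basement membrane genes, Col18a1, source of the fragment endostatin, fell (-0.66, adjusted p = 2.0e-06). Col15a1 was not called over both routes (-0.35, adjusted p = 0.055) and was called without library 28 (-0.48, adjusted p = 0.0026) or without IL-23 oral 24, vehicle intraperitoneal 50 or 67, or vehicle oral 4 (adjusted p 0.030 to 0.048), and with upper-quartile scaling (0.021) or plain library sizes (0.0091). Its oral fall of 0.71 (adjusted p = 0.011) was not called without vehicle oral library 51 (adjusted p = 0.051). Thus 7 of 8 genes of the class fell over both routes, 8 of 8 in oral mice and 5 of 8 in intraperitoneal mice. Without library 28 the counts were 8, 8 and 7. Among all genes, 38.7% were called lower over both routes, 34.0% in oral and 30.9% in intraperitoneal mice.

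**Figure D2:**
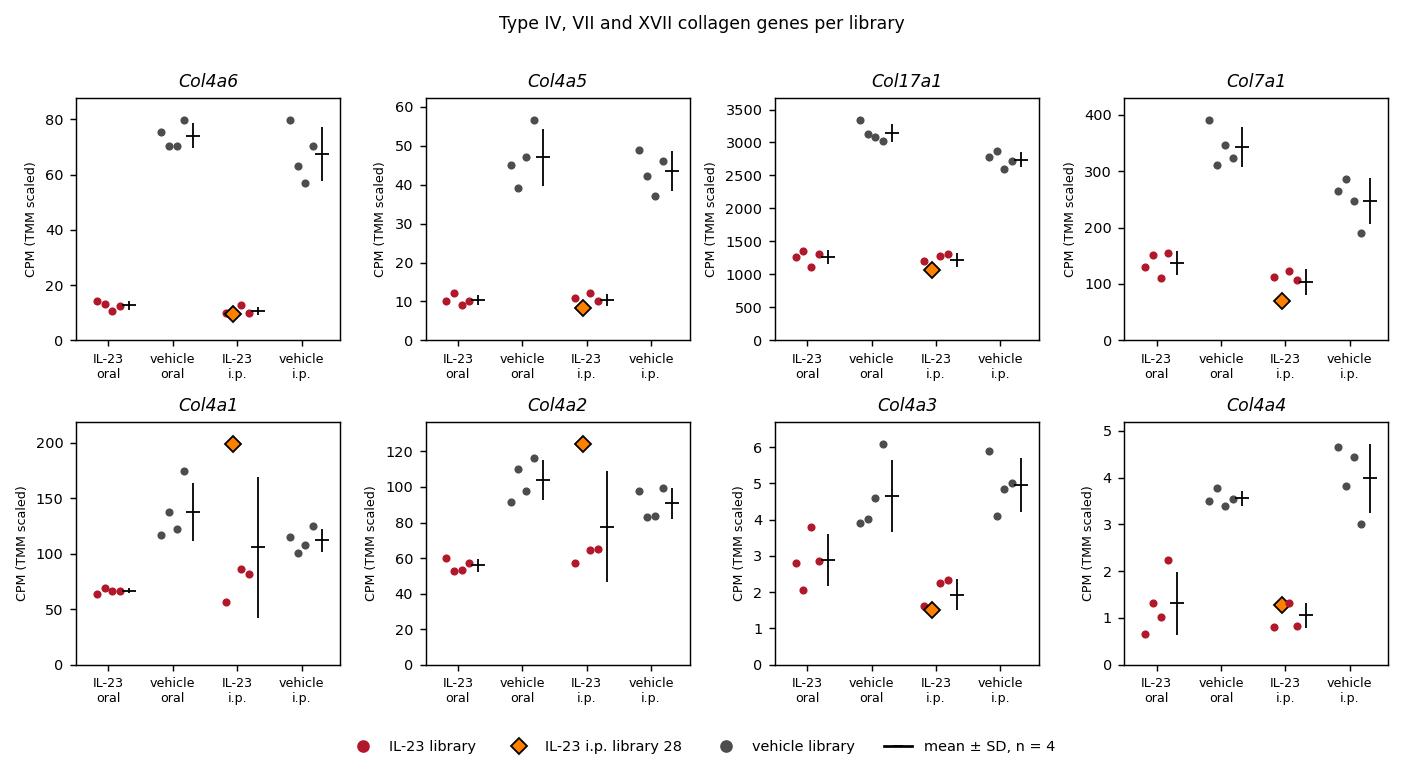
CPM of the type IV, type VII and type XVII collagen genes in every library, IL-23 left of vehicle within each route, with the mean and SD of 4 libraries. Col4a5 and Col4a6 are low in all 8 IL-23 libraries, and library 28 (diamond) is the highest of its group for Col4a1 and Col4a2.

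Both epidermal and anchoring genes fell, 2 of 2 in each route and over both, beside 30.9% to 38.7% of all genes. Col17a1 (ID 12821, chromosome 19, 47646341 to 47692042) had the highest level per kilobase of all 44 collagen genes with either agent, at 222 ± 18.2 CPM per kilobase in IL-23 libraries and 527 ± 44.2 in vehicle libraries (SD, n = 8 each). Its levels were 1257, 1358, 1109 and 1315 CPM in the IL-23 oral libraries, against 3128, 3088, 3347 and 3027 CPM in the vehicle oral libraries. With the intraperitoneal route they were 1205, 1074, 1286 and 1307 CPM with IL-23, against 2781, 2872, 2597 and 2719 CPM with vehicle. The agents did not overlap in either route, and the log2 fold change over both was -1.25 (SE 0.06, adjusted p = 6.6e-11).

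Col7a1 (ID 12836, chromosome 9, 108953586 to 108984875) ranged from 69.3 to 155 CPM in IL-23 libraries (median 117) and from 190 to 392 CPM in vehicle libraries (median 299). It fell by 1.30 on the log2 scale (SE 0.11, adjusted p = 2.6e-08), also without overlap. Its level per kilobase was 0.039 to 0.071 of that of Col17a1 with IL-23 and 0.042 to 0.071 with vehicle, ranges that overlapped. Without library 28 the IL-23 range of this ratio was 0.050 to 0.071. The 9 basal keratinocyte markers did not move as 1 group: Krt14 (0.89) and Krt5 (0.30) rose, though Krt5 was not called with plain library sizes (0.09, adjusted p = 0.25). Over both routes 6 markers fell, beside 38.7% of all genes. They included Krt15 (-2.10), Dst (-1.79), which encodes a hemidesmosome linker, and Lama3 (-1.08), a laminin 332 chain. Their part in the Col17a1 and Col7a1 values was not tested.

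In the cartilage class, 8 of 9 genes fell in each route and over both, beside 30.9% to 38.7% of all genes. The median log2 fold change over both routes was -1.52. Col9a1 (ID 12839, chromosome 1, 24177589 to 24252738), a chain of the type IX collagen that coats cartilage fibrils, showed the largest fall. It had 13.3, 10.4, 12.4 and 19.5 CPM in IL-23 oral libraries, against 49.7, 45.5, 37.9 and 51.3 CPM in vehicle oral libraries. In intraperitoneal mice it had 12.3, 14.0, 16.6 and 11.8 CPM with IL-23, against 65.3, 33.9, 39.9 and 27.5 CPM with vehicle. No IL-23 library reached the lowest vehicle library, and the log2 fold change was -1.66 (SE 0.17, adjusted p = 1.2e-07).

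Col27a1 (ID 373864), a fibrillar chain and the most abundant of the class in CPM, ranged from 48.0 to 114 CPM with IL-23 and from 159 to 247 CPM with vehicle, and fell by 1.52 (SE 0.16). Col10a1 (ID 12813), the hypertrophic chondrocyte collagen, ranged from 7.46 to 16 CPM with IL-23 and from 17.9 to 44.1 CPM with vehicle, and fell by 1.42 (SE 0.20). Col9a2, Col9a3, Col11a1, Col11a2 and Col24a1 fell by 1.42 to 1.57. For these 8 genes the agents did not overlap in either route.

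The exception was Col2a1 (ID 12824, chromosome 15, 97975602 to 98004724), the main fibrillar collagen of hyaline cartilage. It ranged from 11.4 to 36.2 CPM in IL-23 libraries (median 25.1) and from 21.8 to 47.3 CPM in vehicle libraries (median 33.6), which overlapped. Its log2 fold change was -0.43 (SE 0.21, adjusted p = 0.079). It was called in 4 of the alternatives, among them without library 28 (-0.53, adjusted p = 0.026) and without IL-23 oral library 68 (-0.52, adjusted p = 0.045). Its ratio to Col9a1 per kilobase was 0.821 to 1.95 with IL-23 and 0.458 to 0.805 with vehicle, without overlap. The 1.95 was library 28, and the other IL-23 libraries reached 1.73. Its ratio to Col11a1 was 0.759 to 2.19 with IL-23 and 0.463 to 0.824 with vehicle, which overlapped. The 2.19 was also library 28. Neither ratio was tested.

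All 9 tested chondrocyte markers fell over both routes (8 with RLE scaling, where Comp had an adjusted p of 0.052, and 8 without library 28), against 38.7% of all genes. Among them were Hapln1 (-1.40), Matn4 (-1.39) and Acan (-1.31), the aggrecan gene. Their sum was 545 to 1560 CPM with IL-23 and 1717 to 2715 CPM with vehicle. The 545 was library 28, and the other IL-23 libraries began at 869 CPM. Matn1 and Epyc, found but under the filter, were at or near 0. Of 13 names on that list, 11 were found in the table. The part of these markers in the cartilage collagen values was not tested.

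**Figure D3:**
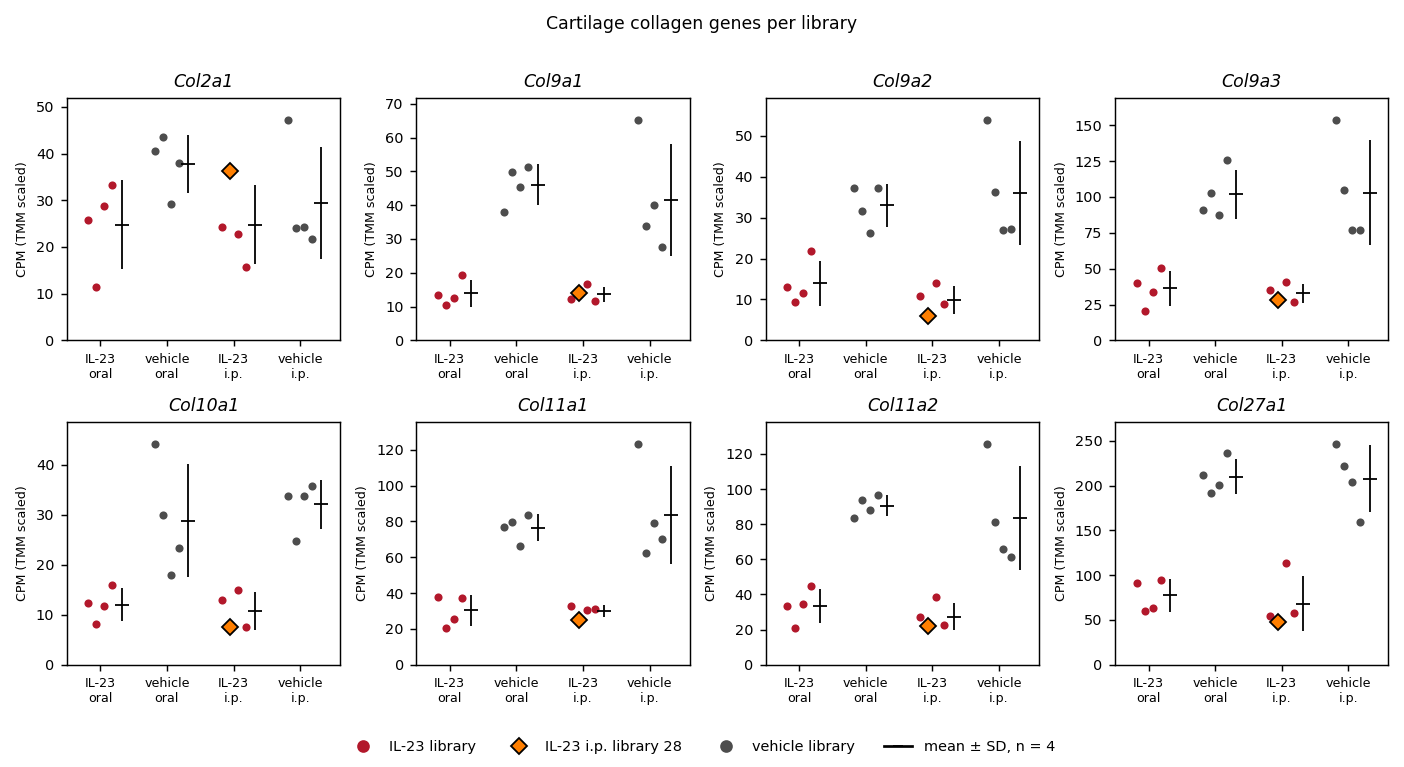
CPM of 8 cartilage collagen genes in every library, IL-23 left of vehicle within each route, with mean and SD of 4 libraries. The agents do not overlap within a route for 7 of these genes, and they do for Col2a1.

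In the fibrillar dermal class several calls changed when library 28 was left out. Over both routes 5 of 6 genes fell (median -0.66), in oral mice 5 of 6 (median -1.04) and in intraperitoneal mice 1 of 6 (median -0.34). Without library 28 these counts were 6, 6 and 5, and the intraperitoneal median was -0.83. That library held the highest level of its group in every gene of the class. With all libraries, 38.7% of all genes were called lower over both routes, 34.0% in oral and 30.9% in intraperitoneal mice. The intraperitoneal share of the class called lower, 16.7%, was below that of all genes.

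Col1a1 and Col1a2 encode the chains of type I collagen. Col1a1 (ID 12842, chromosome 11, 94936224 to 94953042) had 91.6, 121, 135 and 174 CPM in IL-23 oral libraries, against 249, 282, 208 and 383 CPM in vehicle oral libraries. With the intraperitoneal route it had 104, 427, 136 and 149 CPM with IL-23, the 427 being library 28, against 314, 174, 207 and 208 CPM with vehicle. The oral fall was 1.1 on the log2 scale (SE 0.35, adjusted p = 0.011), and the intraperitoneal value was -0.15 (SE 0.35, adjusted p = 0.73). Without library 28 the intraperitoneal value was -0.79 (SE 0.23, adjusted p = 0.0061). Over both routes the value was -0.62 (adjusted p = 0.030), and leaving out any of 7 single libraries (IL-23 intraperitoneal 25, 31 or 61, IL-23 oral 14 or 24, vehicle intraperitoneal 49, vehicle oral 51) took it to an adjusted p between 0.051 and 0.074.

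Col1a2 (ID 12843, chromosome 6, 4505618 to 4541543) ranged from 111 to 515 CPM in IL-23 libraries (median 146) and from 233 to 455 CPM in vehicle libraries (median 312). It gave -1.36 in oral mice (SE 0.36, adjusted p = 0.0034) and -0.41 in intraperitoneal mice (SE 0.35, adjusted p = 0.32). Without library 28 the intraperitoneal value was -1.15 (adjusted p = 7.2e-05). Col5a3 (ID 53867), a minor fibrillar chain, ranged from 19.9 to 41 CPM with IL-23 and from 41.6 to 73.0 CPM with vehicle. It fell in both routes and by 1.02 over both (SE 0.14, adjusted p = 4.3e-06). Col5a1 and Col5a2 fell in oral mice (-0.99 and -0.97) and were called in intraperitoneal mice only without library 28 (-0.88 and -0.70).

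Col3a1 (ID 12825, chromosome 1, 45311538 to 45349706) encodes type III collagen, the companion of type I in dermis. It had 304, 415, 469 and 490 CPM in IL-23 oral libraries, against 682, 693, 486 and 1151 CPM in vehicle oral libraries. With the intraperitoneal route it had 346, 2186, 520 and 691 CPM with IL-23, the 2186 being library 28, against 852, 459, 615 and 531 CPM with vehicle. It was called in neither route (oral -0.84, adjusted p = 0.091, intraperitoneal 0.61, adjusted p = 0.22) and gave -0.12 over both (SE 0.30, adjusted p = 0.73). With only the oral groups fitted, its oral value was called (-0.82, adjusted p = 0.0048), as it was with plain library sizes (-1.05, adjusted p = 0.048). Without library 28 the intraperitoneal value was -0.23 (adjusted p = 0.47), the oral value -0.81 (adjusted p = 0.0075) and the value over both routes -0.52 (adjusted p = 0.015).

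Within libraries, the ratio of Col3a1 to Col1a2 per kilobase was 2.49 to 4.20 with IL-23 and 1.64 to 2.43 with vehicle, without overlap. The ratio of Col3a1 to Col1a1 was 3.01 to 5.46 with IL-23 and 2.5 to 3.20 with vehicle, which overlapped. The 5.46 was library 28, and the other IL-23 libraries reached 4.95. Of 10 fibroblast markers, 5 fell and 1 (Thy1) rose over both routes, beside 38.7% lower and 34.9% higher among all genes, with Fap (-1.12), Dpt (-0.91) and Pdgfrb (-0.84) the largest falls. With RLE scaling 4 fell, as Dcn had an adjusted p of 0.051, and without library 28 there were 7. In oral mice 6 fell and 1 rose (median -0.82), and in intraperitoneal mice 3 fell and 1 rose (median 0.04), or 4 and 1 without library 28 (median -0.33). The part of these markers in the fibrillar collagen values was not tested.

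**Figure D4:**
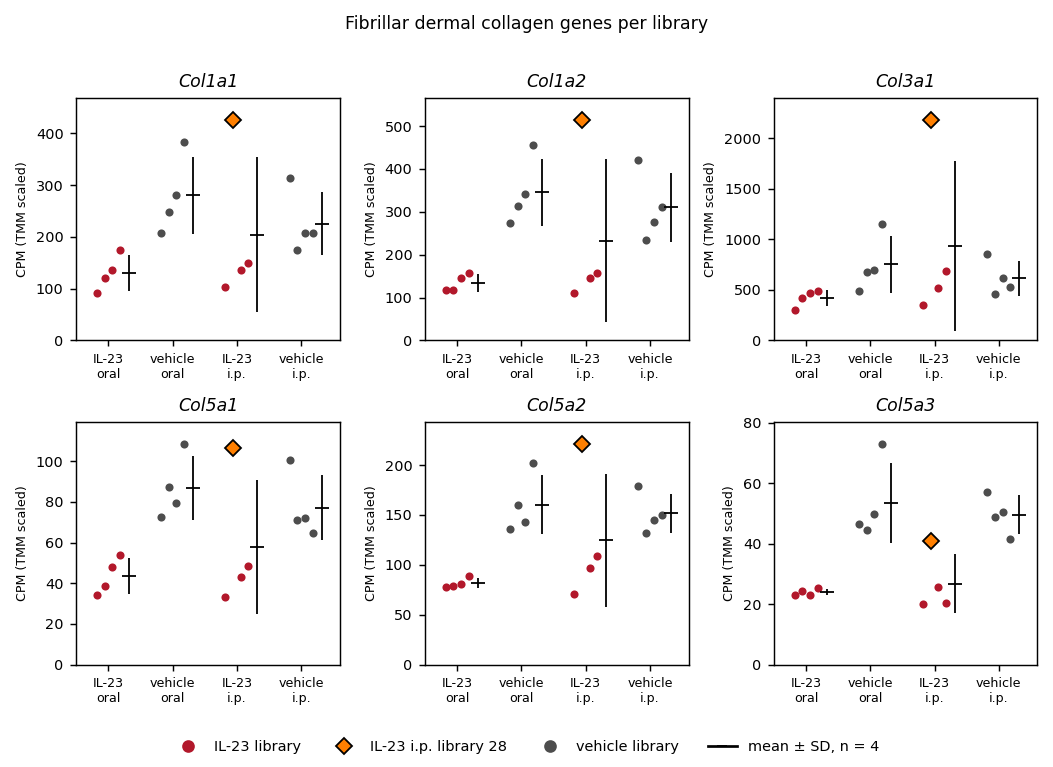
CPM of the 6 fibrillar dermal collagen genes in every library, IL-23 left of vehicle within each route, with mean and SD of 4 libraries. Library 28 (diamond) lies above the other 3 libraries of its group in each panel.

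Among the beaded filament genes, which form the type VI microfibrils around cells, 3 fell and 1 rose of 5 tested over both routes. Of all genes, 38.7% were called lower and 34.9% higher in that contrast. Col6a1 (ID 12833) ranged from 51.2 to 140 CPM with IL-23 and from 148 to 209 CPM with vehicle, without overlap, and fell by 1.1 (SE 0.15, adjusted p = 6.5e-06). Col6a3 (ID 12835) ranged from 99.6 to 267 CPM with IL-23 and from 202 to 303 CPM with vehicle, and fell by 0.73 (SE 0.16, adjusted p = 0.00067). Its intraperitoneal call (-0.59, adjusted p = 0.035) was lost without IL-23 libraries 25, 31 or 61 or vehicle libraries 49 or 59 (adjusted p 0.053 to 0.12), or with only the intraperitoneal groups fitted (adjusted p = 0.091), and the value was -0.96 without library 28. The ratio of Col6a1 to Col6a2 per kilobase was 0.580 to 0.700 with IL-23 and 0.731 to 0.897 with vehicle, without overlap. That of Col6a3 to Col6a2 was 0.439 to 0.605 with IL-23 and 0.486 to 0.603 with vehicle, which overlapped. Neither ratio was tested. Col6a6 (ID 245026) was not called (-0.98, adjusted p = 0.064). It was called over both routes without IL-23 intraperitoneal 25, IL-23 oral 68, vehicle intraperitoneal 67 or vehicle oral 4 (adjusted p 0.0068 to 0.035), with limma-voom (0.046), upper-quartile scaling (0.045) or plain library sizes (0.024), and in intraperitoneal mice without IL-23 library 25 (-1.80, adjusted p = 0.029).

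Col6a5 (ID 665033), a chain of low expression, was the only collagen gene called higher. It had 0.493, 0.604, 1.14 and 1.38 CPM in IL-23 oral libraries, against 0.122, 0.200, 0.239 and 0.101 CPM in vehicle oral libraries. With the intraperitoneal route it had 2.11, 0.231, 2.38 and 0.83 CPM with IL-23, against 0.131, 0.528, 1.59 and 0.200 CPM with vehicle. These are 70 counts in all 8 IL-23 libraries and 36 in all 8 vehicle libraries. Col6a5 passed the count filter mainly through IL-23 libraries, where it was higher, so the size of its rise is uncertain. The value over both routes was 1.74 (SE 0.54, adjusted p = 0.0081). The oral call (2.34, adjusted p = 0.024) was lost without IL-23 libraries 26 or 68 or vehicle library 51, and the intraperitoneal value (1.14, adjusted p = 0.15) was called without library 28 or without vehicle library 59.

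Of the FACIT genes, whose products sit on fibril surfaces, 4 of 5 fell over both routes, beside 38.7% of all genes. Col16a1 (ID 107581) ranged from 66.2 to 89.7 CPM with IL-23 and from 121 to 169 CPM with vehicle and fell by 0.92 (SE 0.08). Col22a1 (ID 69700), known from tissue junctions, had 3.65 to 5.53 CPM with IL-23, against 8.84 to 18.2 CPM with vehicle, and its log2 fold change was -1.54 (SE 0.11). Col20a1 (ID 73368) fell by 1.18. Col12a1 was not called (-0.14, adjusted p = 0.29). Without library 28 it was -0.24 (adjusted p = 0.0075), and with plain library sizes -0.34 (adjusted p = 0.027). Col14a1 (ID 12818) had 9.03 to 28.8 CPM with IL-23 and 11.5 to 31.1 CPM with vehicle, which overlapped. It fell over both routes (-0.52, adjusted p = 0.037), and this call was lost without any 1 of 10 libraries (IL-23 intraperitoneal 25, 31 or 61, IL-23 oral 14 or 24, vehicle intraperitoneal 49, 59 or 67, vehicle oral 33 or 51), with adjusted p from 0.050 to 0.11. Its oral call (-0.87, adjusted p = 0.020) was lost without IL-23 oral 14 or 24 or vehicle oral 51.

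Of the other collagens, 4 of 6 fell over both routes, beside 38.7% of all genes. Col8a1 (ID 12837), a short-chain network collagen, ranged from 161 to 318 CPM with IL-23 and from 454 to 972 CPM with vehicle, and fell by 1.45 (SE 0.16). Col25a1 (ID 77018), a transmembrane collagen, ranged from 1.85 to 6.90 CPM with IL-23 and from 7.67 to 12.5 CPM with vehicle. It fell by 0.99 in oral and by 2.10 in intraperitoneal mice, and the difference between routes was -1.12 (SE 0.35, unadjusted p = 0.0051, adjusted p = 0.88). Col8a2 fell by 1.33 and Col28a1 by 1.19. Col23a1 was not called in any contrast. Col13a1 was called in oral mice (-0.78, adjusted p = 0.026), a call lost without IL-23 oral 26 or 68 or vehicle oral 33, 4 or 51 (adjusted p 0.051 to 0.091). It was not called over both routes (-0.40, adjusted p = 0.085), but was called without vehicle oral library 27 (-0.48, adjusted p = 0.027), with upper-quartile scaling (-0.48, adjusted p = 0.042) and with plain library sizes (-0.60, adjusted p = 0.019).

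All collagen counts together summed to 3865 ± 1081 CPM in IL-23 libraries and 7521 ± 847 CPM in vehicle libraries (SD, n = 8 each). Library 28 alone summed to 6448 CPM, and the other 7 IL-23 libraries to 3496 ± 302 CPM. Epidermal and anchoring genes took 37.1% of the collagen counts with IL-23 and 43.4% with vehicle. Fibrillar dermal genes took 28.7% with IL-23 and 20.4% with vehicle, and cartilage genes took 6.28% with IL-23 and 8.27% with vehicle. Without library 28 these IL-23 shares were 39.9% for the epidermal, 25.0% for the fibrillar and 6.76% for the cartilage genes. The fibrillar share ranged from 19.7% to 54.2% with IL-23, with library 28 at the top, and from 16.2% to 27.0% with vehicle.

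Genes for collagen processing moved with the collagens in part. Over both routes, 22 of 32 biosynthesis and cross-linking genes fell, 3 rose and 7 were not called (median -0.59), beside 38.7% lower among all genes. Without library 28, 26 fell and 3 rose over both routes (median -0.65), beside 38.3% lower among all genes. In oral mice 23 fell (median -0.72) and in intraperitoneal mice 15 fell (median -0.36), or 21 without library 28 (median -0.63). The procollagen N-proteinase gene Adamts14 fell by 2.66 (13.7 ± 3.89 CPM with IL-23 and 85.9 ± 8.01 CPM with vehicle, SD, n = 8 each), and the lysyl oxidase family gene Loxl4 fell by 1.68. P4ha3, which encodes a prolyl 4-hydroxylase subunit, rose by 3.03 (2.37 ± 0.608 CPM with IL-23 and 0.275 ± 0.197 CPM with vehicle). Its vehicle level lay near the floor, so P4ha3 passed the count filter only through the IL-23 libraries, and the size of its rise is uncertain. P4hb and Ppib, which also serve other secreted proteins, rose by 0.76 and 0.33, though Ppib was not called with plain library sizes (0.12, adjusted p = 0.17). The falls were 21 with RLE scaling, 25 with upper-quartile scaling and 28 with plain library sizes. Of 9 receptor and uptake genes tested, 7 fell and 1 (Ddr2) rose over both routes, with Itga2 (-1.92), Mrc2 (-1.55) and Itga11 (-1.47) the largest falls.

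Markers of other cell types moved in the same comparison. All 10 skeletal muscle and all 8 adipocyte markers fell over both routes, beside 38.7% of all genes. In the same contrast, 7 of 8 Schwann cell, 6 of 8 endothelial and 5 of 7 smooth muscle and pericyte markers fell. The remaining Schwann cell marker was called higher over both routes and in oral mice. With plain library sizes it was not called higher over both routes. Of the 8 endothelial markers, 5 fell in oral mice (median -0.67) while in intraperitoneal mice (median -0.24) their adjusted p ran from 0.054 to 0.80, and 2 were called lower without library 28. The summed skeletal muscle markers were 1232 to 2371 CPM with IL-23 and 2814 to 6075 CPM with vehicle. With plain library sizes the endothelial count was 7 and the smooth muscle count 7, and with RLE scaling the endothelial count was 5. The part of these markers in the collagen values was not tested.

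Col19a1, Col26a1 and Col6a4 did not pass the count filter, with 19, 8 and 3 counts over the IL-23 libraries and 76, 47 and 3 over the vehicle libraries.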

How the data were processed

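Per the labels' protocols, libraries came from a TruSeq kit for stranded total RNA and were read on an Illumina HiSeq instrument. The deposited values are read counts per gene, which the authors made with STAR and featureCounts (Subread 1.5.0) after FastQC, against GRCm38, per the submitters' processing notes. Not given in the sources used here were the annotation, the strand setting and how multi-mapped reads were treated.

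Genes were kept by edgeR's filterByExpr with a minimum count of 10 and scaled with TMM factors. A quasi-likelihood model of the 4 groups (12 residual degrees of freedom) was fitted to all 16 libraries with edgeR 4.0.16 in R 4.3.3. P-values are 2-sided, Benjamini-Hochberg adjusted over all genes tested, and called below 0.05. The script was tested on simulated data. Alternatives used other scaling, other filters, DESeq2 1.42.0, limma-voom (limma 3.58.1), each route alone, and each library left out in turn. Leaving library 28 out of the marker lists, class sums and ratios was chosen after seeing the data. Titles share no replicate number between groups.

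The members and gene lists were chosen with earlier results of these data known. Named in full were 23 genes: the most abundant, the largest rise and the largest fall of each class, genes called against their class, the Col4 pairs, and Col1a1, Col1a2, Col3a1, Col2a1, Col10a1, Col7a1 and Col17a1. Others whose calls changed were named after their values were seen. Coordinates are GRCm38 gene bounds from RefSeq, matched for 44 of 44 genes, and exons are from GENCODE vM21.

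Levels per kilobase use the longest CCDS transcript, a length chosen after values with the union of all annotated exons had been seen. The choice changed the rank of 27 of 44 collagen genes with IL-23 (by at most 6 places) and of 25 with vehicle (by at most 5). Col17a1 ranked 1 either way, and length does not change whether a ratio within libraries overlaps between agents. Counts are not deduplicated molecules, so CPM carries counting error at low levels.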

Additional observations from a re-analysis of the deposited data

Results flagged for a closer look

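In 92 groups of 4 libraries, 8 held 1 library that stood far from the other 3, where chance flags about 1 in 20 groups. IL-23 intraperitoneal library 28 stood high for Col1a1 (427 CPM, the nearest other library of its group 149 CPM), for Col1a2 (515 CPM, nearest 158 CPM) and for Col4a2 (124 CPM, nearest 65.2 CPM). IL-23 intraperitoneal library 31 stood high for Col27a1 (114 CPM, nearest 57.2 CPM) and for Col4a6 (12.7 CPM, nearest 10.1 CPM). IL-23 oral library 14 stood high for Col25a1 (6.90 CPM, nearest 3.72 CPM). Vehicle intraperitoneal library 49 stood high for Col2a1 (47.3 CPM, nearest 24.4 CPM) and for Col6a1 (209 CPM, nearest 158 CPM).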

How the results depend on the processing

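No paired analysis was possible because no replicate number is shared between groups. Leaving out each library in turn gave 31 to 37 collagen genes lower in oral mice, 25 to 32 in intraperitoneal mice and 31 to 37 over both routes, with 0 to 1 higher in oral mice, 0 to 1 in intraperitoneal mice, 1 to 1 over both routes, and 0 called for the difference between routes. Under the other settings 35 to 38 were lower in oral mice, 25 to 26 in intraperitoneal mice and 33 to 38 over both routes. With only the groups compared, the count higher in oral mice was 0. Summed levels from plain library sizes moved by more than the spread between libraries for basement membrane genes in IL-23 oral mice (209.6 CPM), other collagens in IL-23 intraperitoneal mice (277 CPM), beaded filament genes in vehicle oral mice (637 CPM), and epidermal and anchoring genes in vehicle oral mice (3720.0 CPM) and vehicle intraperitoneal mice (3229.9 CPM). Every change of sign was in a contrast where that gene was not called. Col1a1, Col4a1, Col13a1, Col14a1 and Col15a1, which changed sign in intraperitoneal mice, were called lower in oral mice. For intraperitoneal Col12a1 the log2 value was -0.092 with upper-quartile scaling, -0.19 with plain library sizes and -0.033 with limma-voom, and for Col15a1 the values under those settings were -0.091, -0.19 and -0.041. For Col13a1 it was 0.0054 with RLE scaling, 0.0053 without a filter and 0.0067 with DESeq2. Col23a1 gave -0.050 with plain library sizes in intraperitoneal mice, and over both routes -0.058 with upper-quartile scaling and -0.18 with plain library sizes. With 1 library left out, intraperitoneal values ran from -0.23 to 0.13 for Col12a1, -0.11 to 0.18 for Col13a1, -0.55 to 0.032 for Col14a1, -0.28 to 0.17 for Col15a1, -0.48 to 0.091 for Col2a1, -0.23 to 0.89 for Col3a1, -0.57 to 0.13 for Col4a1 and -0.79 to 0.075 for Col1a1. Over both routes they ran from -0.52 to 0.036 for Col3a1 and from -0.015 to 0.081 for Col23a1. The cause was not tested. Counts limit Col6a5, Col6a6, Col13a1 and Col24a1, which were near 1 to 3 CPM. They also limit Col4a3 and Col4a4, with 147 and 76 counts over the IL-23 libraries, and the processing gene P4ha3.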
